A study of Mus musculus with 12 samples.

Results

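Mouse bone marrow-derived macrophages (BMDMs) that received IL-4 and then LPS were compared with untreated BMDMs by RNA-seq, to describe which alternative and which inflammatory markers were found together. The comparison used 6 of the 12 samples of the series, 3 labelled IL-4+LPS here and 3 untreated controls, and the rows with at least 1 FPKM in any of those 6. FPKM counts fragments per kilobase of transcript as a share of those mapped in that library. Of 23847 rows in each table, 10970 met that rule, and a row is 1 gene symbol with its locus and start sites.

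All samples were wild-type BMDMs from the marrow of mice aged 8 to 12 weeks, and the strains of the study had a C57BL/6 background. Marrow cells were differentiated for 6 days with L929 supernatant, a source of M-CSF, in every group, controls included. The IL-4+LPS group was given 20 ng/ml IL-4 for 24 h followed by 100 ng/ml LPS for 3 h, the doses being those of the labels (the study's methods give the LPS dose in nM). The remaining samples were 3 with IL-4 alone and 3 with LPS alone at the same doses and times, and they served as the single-agent references. The study describes 3 animals over 2 separate experiments, and the labels do not tie a sample to an animal or an experiment. The p-values below therefore measure only the spread between these samples, part of which may be technical.

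IL-4 signals through its receptor and JAK kinases to STAT6, which binds palindromic DNA sites and switches on the genes of alternative polarization: arginase, resistin-like and chitinase-like proteins, lectins, and chemokines that attract T helper cells and eosinophils. LPS is bound by LBP, CD14 and the TLR4 and MD-2 complex, which signals through MyD88 and TRIF to NF-kB, AP-1 and interferon regulatory factors. The early products are cytokines and chemokines, and the IFN-β among them acts back on the cells to induce interferon-stimulated genes. Each sample here is RNA from a whole culture, so fewer cells of a type and less RNA per cell cannot be told apart, nor can 1 cell carrying both programs be told from a mixture of cells.

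FPKM totals lay between 457583 and 495025 over the 12 samples, and relative depth, read from the steps between low values with control replicate 1 set to 1, lay between 0.991 and 3.296. Fragment counts were not used here, so absolute depth is unknown. The replicates correlated over the tested rows with Pearson's r of 0.952 to 0.974 in control and 0.956 to 0.982 in IL-4+LPS. In both groups the pairs with replicate 1 gave the lower values, and replicate 1 of IL-4+LPS and of LPS was lower for many LPS-induced genes. Counts are therefore also given without the 4 libraries numbered 1, a choice made after the data were seen. The same-numbered samples of LPS and IL-4+LPS deviated from their group means together, so the value with the replicate number as a block is given where it changed a call against LPS. Of 10 macrophage identity genes all passed the filter. Cd14 and Sfpi1 were higher in IL-4+LPS than in control and the other 8 were lower, where 18.1% and 57.2% of all rows were. Against LPS Sfpi1 was called lower with the replicate number as a block (limma adjusted p = 0.013). Their summed level was 22226 to 23982 FPKM in control and 9467 to 9650 FPKM in IL-4+LPS, most of it Lyz2. Markers of T and NK cells summed to at most 0.169 FPKM and stromal markers to at most 0.248 FPKM in the 6 samples. Neutrophil granule genes summed to 92.0 to 177.9 FPKM in control and 79.5 to 157.9 FPKM in IL-4+LPS, which overlap. Dendritic cell markers summed to 0.420 to 0.563 FPKM in control and 2.34 to 3.24 FPKM in IL-4+LPS; most of this was Zbtb46, at 0, 0.105 and 0.135 and 1.94, 2.48 and 2.83 FPKM, while Flt3, Xcr1 and Siglech stayed below 0.5 FPKM in the 6 samples. B cell markers summed to 2.08 to 3.28 and 2.11 to 4.36 FPKM, and mast cell, basophil and eosinophil markers to 5.08 to 12.0 and 3.45 to 12.4 FPKM. The part of such cells in the results was not tested.

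IL-4+LPS differed from control across most of the transcriptome. With limma on log2(FPKM + 1) and a Benjamini-Hochberg adjusted p under 0.05, 1981 rows (18.1%) were higher and 6277 rows (57.2%) were lower in IL-4+LPS, and 2712 did not pass. At least 2-fold differences were found in 896 higher and 2420 lower rows, and at least 8-fold differences in 209 higher and 106 lower rows. The pseudocount of 1 makes these differences smaller than the ratio of FPKM for genes with low values. The median difference over all rows was -0.45, and 76.0% of the calls were lower. After scaling each sample to a common median, 3263 rows were higher and 4447 lower, so that 57.7% of the calls were lower. Median scaling moved the median of all rows up by 0.321 and quantile normalization by 0.337. Each difference from control below can be read against the median of -0.45, which does not apply to differences from IL-4 or LPS. Against IL-4 15.1% of all rows were higher and 58.3% lower, and against LPS 15.2% and 15.8%.

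Promoter sequences were available for part of the markers, from RefSeq on GRCm38.p6, the patch release of the mm10 assembly. Windows of 300 bases, 250 before and 50 after each start site, were searched on both strands for a STAT6-type palindrome (TTC, 4 free bases, GAA), the NF-kB consensus and the AP-1 site TGANTCA. Over all 32851 windows the shares were 6.95%, 5.8% and 7.81%. Among the 21 windows of 19 alternative markers 8 (38.1%) held the palindrome, 3 the NF-kB consensus and 0 the AP-1 site. Among the 10 windows of the inflammatory chemokines 6 (60.0%) held the NF-kB consensus and 0 the palindrome, and among the 15 windows of 14 cytokines each of the 3 motifs was found in 3. The palindrome was also in 6 of 26 windows (23.1%) of interferon-stimulated genes and 3 of 20 (15.0%) of inflammatory enzymes and effectors. In the remaining lists its share was 0% to 14.3%. The NF-kB consensus was in 5.0% (enzymes and effectors) to 31.2% (antigen presentation) of the windows of the lists other than chemokines. A match is a stretch of letters and no evidence of binding, and genes of 1 cluster may share promoter sequence. RefSeq start sites can differ from the ends of the loci in the files.

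The 6 windows shown each hold a match and are given as the 250 bases before the start site from 5′ to 3′ on the strand of the gene, with the matches in capitals. They belong to alternative markers whose IL-4+LPS level was near that of IL-4 (Retnla), below it (Pdcd1lg2) or above it (Ccl17), to a gene highest in IL-4+LPS (Apol7c), and to inflammatory genes above (Il6) and below (Cxcl10) the LPS level; their values are given with each gene in the paragraphs that follow.
Retnla (chr16:48842359-48842608, plus strand): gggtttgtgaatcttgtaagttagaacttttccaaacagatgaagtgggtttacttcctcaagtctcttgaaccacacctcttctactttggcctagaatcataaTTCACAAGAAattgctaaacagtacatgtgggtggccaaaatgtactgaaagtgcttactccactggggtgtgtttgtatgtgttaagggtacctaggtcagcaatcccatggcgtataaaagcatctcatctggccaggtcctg
Pdcd1lg2 (chr19:29410669-29410918, plus strand): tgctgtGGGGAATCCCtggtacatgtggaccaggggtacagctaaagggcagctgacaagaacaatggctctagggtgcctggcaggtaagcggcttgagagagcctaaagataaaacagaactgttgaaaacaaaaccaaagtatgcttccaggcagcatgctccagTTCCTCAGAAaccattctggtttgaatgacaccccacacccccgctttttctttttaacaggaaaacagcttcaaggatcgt
Ccl17 (chr8:94810203-94810452, plus strand): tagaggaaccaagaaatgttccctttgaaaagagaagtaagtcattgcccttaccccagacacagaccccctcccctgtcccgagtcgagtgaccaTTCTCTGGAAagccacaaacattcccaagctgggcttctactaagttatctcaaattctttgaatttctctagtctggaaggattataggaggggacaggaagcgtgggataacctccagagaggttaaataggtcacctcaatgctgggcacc
Apol7c (chr15:77533316-77533565, minus strand): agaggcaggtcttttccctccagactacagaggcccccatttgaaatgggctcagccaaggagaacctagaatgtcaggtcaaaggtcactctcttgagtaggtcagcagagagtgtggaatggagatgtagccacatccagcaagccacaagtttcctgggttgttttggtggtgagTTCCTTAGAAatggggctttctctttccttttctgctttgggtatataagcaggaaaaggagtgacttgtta
Il6 (chr5:30012864-30013113, plus strand): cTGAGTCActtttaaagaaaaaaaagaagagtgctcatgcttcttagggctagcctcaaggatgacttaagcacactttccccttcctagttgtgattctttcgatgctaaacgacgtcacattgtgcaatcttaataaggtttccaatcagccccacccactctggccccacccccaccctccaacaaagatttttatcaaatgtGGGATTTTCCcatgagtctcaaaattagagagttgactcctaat
Cxcl10 (chr5:92348890-92349139, minus strand): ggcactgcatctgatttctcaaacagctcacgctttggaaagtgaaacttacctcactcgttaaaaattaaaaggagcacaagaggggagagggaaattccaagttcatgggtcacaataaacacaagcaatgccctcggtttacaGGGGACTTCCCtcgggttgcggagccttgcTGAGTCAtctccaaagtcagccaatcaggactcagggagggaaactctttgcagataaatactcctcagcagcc
In Retnla, Ccl17 and Apol7c the capitals mark the STAT6-type palindrome. In Pdcd1lg2 the first capitals mark an NF-kB match and the second the palindrome. In Il6 the first mark the AP-1 site and the second the NF-kB match, and in Cxcl10 the order is reversed, with overlapping NF-kB matches written as 1 run.

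The alternative polarization markers were largely present in IL-4+LPS. Of 28 markers with a row, 25 passed the filter, and 20 of these were higher than in control, 1 was lower and 4 did not pass the test. Of all rows 18.1% were higher and 57.2% lower than in control. The median difference from control was 4.11. Because a gene that is high in 1 group passes the filter through that group, such counts describe the markers and are no test of the list. Alox15, Cd209a and Cdh1 stayed below the filter. Against IL-4 alone 9 of the 25 were higher and 10 lower, where 15.1% and 58.3% of all rows were, and against LPS alone 22 were higher and 1 lower, where 15.2% and 15.8% of all rows were.

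Retnla (mm10, chr16:48842552-48844461), which encodes the secreted resistin-like molecule alpha, had the largest rise of the rows past the test whose groups did not overlap, short RNA genes left out. It was measured at 5.91, 19.5 and 8.74 FPKM in control replicates 1 to 3 and at 9556, 11252 and 10633 FPKM in IL-4+LPS, with a mean of 10480 ± 858 (SD, n = 3). IL-4 alone gave 11617, 11878 and 13029 FPKM and LPS alone 3.48, 2.82 and 6.61 FPKM. The IL-4+LPS samples lay far above every control and LPS sample and just below the IL-4 samples. The palindrome in its promoter is printed above. Retnla differed by 9.88 (SE 0.35, limma adjusted p = 3.6e-09) on the log2 scale from control and by -0.22 (SE 0.35, limma adjusted p = 0.59) from IL-4.

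Chi3l3 (chr3:106147554-106167564) and Chi3l4 encode chitinase-like lectins, also called Ym1 and Ym2. Chi3l3 was at 19.2, 41.4 and 28.9 FPKM in control, 713, 942 and 866 FPKM in IL-4, 18.3, 46.1 and 33.1 FPKM in LPS and 546, 704 and 715 FPKM in IL-4+LPS. Its log2 difference was 4.47 (SE 0.32, limma adjusted p = 4.8e-07) from control and -0.36 (SE 0.32, limma adjusted p = 0.33) from IL-4. Chi3l4 differed from control by 4.12 (SE 0.31, limma adjusted p = 6.5e-07). The paralogs share sequence: 29.4% of the 50-base words of Chi3l3 occur in transcripts of other genes, so fragments could be assigned to either. Fn1, the matrix protein fibronectin, was at 0.182, 0.306 and 0.236 FPKM in control and 18.4, 17.2 and 18.0 FPKM in IL-4+LPS, a log2 difference of 3.93 (SE 0.08, limma adjusted p = 2.3e-10). The IL-4 samples had 20.8, 19.3 and 18.4 FPKM, and the difference from IL-4 was -0.12 (SE 0.08, limma adjusted p = 0.22).

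Another set of markers was above control and yet below IL-4 alone: Arg1, Ear11, Matk, Mgl2, Pdcd1lg2, Ptgs1 and Tmem26. Arg1 (chr10:24915207-24927470), the arginase that turns arginine into ornithine and urea, was at 0.261, 0 and 0.04 FPKM in control and 24.4, 15.2 and 15.1 FPKM in IL-4+LPS. IL-4 alone gave 49.6, 27.3 and 23.6 FPKM, so the highest IL-4+LPS sample and the lowest IL-4 sample overlap. The log2 difference was 4.10 (SE 0.26, limma adjusted p = 1.7e-07) from control and -0.81 (SE 0.26, limma adjusted p = 0.016) from IL-4. The second of these calls ended when IL-4+LPS replicate 2 or 3 was left out (limma adjusted p = 0.058 and 0.059), under quantile normalization (0.061) and under median scaling (0.15).

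Pdcd1lg2 (chr19:29410919-29472927), which encodes the T cell inhibitory ligand PD-L2, was at 0.155, 0.252 and 0.157 FPKM in control, 23.1, 21.9 and 19.9 FPKM in IL-4 and 13.4, 8.83 and 9.40 FPKM in IL-4+LPS. The IL-4+LPS mean was 48.6% of the IL-4 mean, and the log2 difference from IL-4 was -0.99 (SE 0.13, limma adjusted p = 5.7e-05). Tmem26, a membrane protein, was at 0.36, 0.642 and 0.64 FPKM in control, 86.1, 111 and 99.5 FPKM in IL-4 and 60.1, 49.5 and 54.6 FPKM in IL-4+LPS. In both genes the 3 IL-4+LPS values lay between the control and the IL-4 values with no overlap. Ptgs1, the constitutive cyclooxygenase, was the marker of this set furthest below IL-4, with a mean of 9.30 ± 1.35 FPKM (SD, n = 3), 26.1% of the IL-4 mean and a log2 difference of -1.83 (SE 0.12, limma adjusted p = 4.1e-07). Ear11, an eosinophil-associated ribonuclease, and Mgl2, a galactose-binding lectin, had IL-4+LPS means of 72.0% and 71.1% of their IL-4 means. Their calls against IL-4 were lost under median scaling (limma adjusted p = 0.51 and 0.35), while their differences from control were 7.42 and 4.11.

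A further set was higher in IL-4+LPS than in any other group: Ccl17, Ccl22, Ccl24, Cish, Edn1, Flt1 and Slc7a2. Ccl17 (chr8:94810453-94812036) and Ccl22 encode ligands of CCR4 on T cells. Ccl17 was at 0, 0.2 and 0.162 FPKM in control, 1.35, 4.81 and 1.99 FPKM in IL-4, 0, 0.205 and 0.746 FPKM in LPS and 25.7, 86.7 and 79.7 FPKM in IL-4+LPS. The lowest IL-4+LPS value, in replicate 1, was still above every other sample. It differed by 5.68 (SE 0.45, limma adjusted p = 9.3e-07) from control, 4.06 (SE 0.45, limma adjusted p = 1.5e-05) from IL-4 and 5.49 (SE 0.45, limma adjusted p = 8.2e-06) from LPS. Ccl22 was at 10.3, 5.99 and 4.07 FPKM in IL-4, 14.0, 27.6 and 24.0 FPKM in LPS and 78.8, 259.8 and 224 FPKM in IL-4+LPS. Ccl24, which attracts eosinophils, was at 12.5, 10.6 and 9.37 FPKM in IL-4, 2.30, 5.34 and 5.99 FPKM in LPS and 75.7, 201 and 195 FPKM in IL-4+LPS. For both chemokines each IL-4+LPS value lay above every single-agent value.

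Slc7a2 (chr8:40862367-40922070), a cationic amino acid transporter that brings arginine into macrophages, was at 0.2, 0.79 and 0.411 FPKM in control, 15.4, 24.4 and 21.3 FPKM in IL-4, 3.86, 29.1 and 22.4 FPKM in LPS and 92.4, 289 and 257 FPKM in IL-4+LPS. Slc7a2 differed by 3.19 (SE 0.62, limma adjusted p = 0.00089) from IL-4 and 3.67 (SE 0.62, limma adjusted p = 0.0013) from LPS. Cish, a suppressor of cytokine signalling induced by STAT proteins, differed by 2.65 (SE 0.47, limma adjusted p = 0.00044) from IL-4 and 3.23 (SE 0.47, limma adjusted p = 0.00046) from LPS, and Flt1, a VEGF receptor, by 1.27 (SE 0.23, limma adjusted p = 0.00048) and 3.25 (SE 0.23, limma adjusted p = 2.7e-06). Edn1, the precursor of the vasoconstrictor endothelin-1, is counted both here and among the inflammatory enzymes and effectors below. It was at 0, 0.407 and 0.094 FPKM in control and 1.21, 0.393 and 0.29 FPKM in IL-4. With LPS it was at 18.6, 108 and 99.7 FPKM and in IL-4+LPS at 98.3, 389 and 376 FPKM. Its call against LPS had limma adjusted p = 0.041 and ended without any 1 of 8 libraries, for instance LPS replicate 1 (limma adjusted p = 0.12).

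Of the other 2 markers above control, Tgm2, a transglutaminase, was above IL-4 and did not pass against LPS (limma adjusted p = 0.17, and 0.0029 in the lower direction with the replicate number as a block), and Hbegf, an EGF-family growth factor, was above LPS and did not pass against IL-4. The last 5 markers were not above control. Mrc1, the mannose receptor CD206, was at 198, 167 and 179 FPKM in control, 284, 234 and 249.6 FPKM in IL-4 and 176, 114 and 133 FPKM in IL-4+LPS, so that the control and IL-4+LPS samples overlap. The log2 difference from control was -0.38 (SE 0.15, limma adjusted p = 0.043). It passed narrowly, was lost without control replicate 1 (limma adjusted p = 0.13) or IL-4+LPS replicate 2 (0.18) among others, and was 0.01 after median scaling. Against LPS Mrc1 differed by 0.43 (limma adjusted p = 0.055), and it was called higher with the replicate number as a block (0.0012). Clec10a, a galactose-binding lectin, differed from control by 0.25 (SE 0.20, limma adjusted p = 0.27), the beta-glucan receptor gene Clec7a by 0.90 (SE 0.43, limma adjusted p = 0.078) and the scavenger receptor gene Cd36 by 0.01 (SE 0.14, limma adjusted p = 0.98). After median scaling all 3 were called higher (limma adjusted p = 0.017, 0.02 and 0.025). Il4ra, the signalling chain of the IL-4 receptor, was at 99.0, 234 and 207 FPKM in LPS and 19.0, 40.3 and 37.9 FPKM in IL-4+LPS, and differed from control by 0.32 (SE 0.32, limma adjusted p = 0.38) and from LPS by -2.42 (SE 0.32, limma adjusted p = 0.00025).

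**Figure D1:**
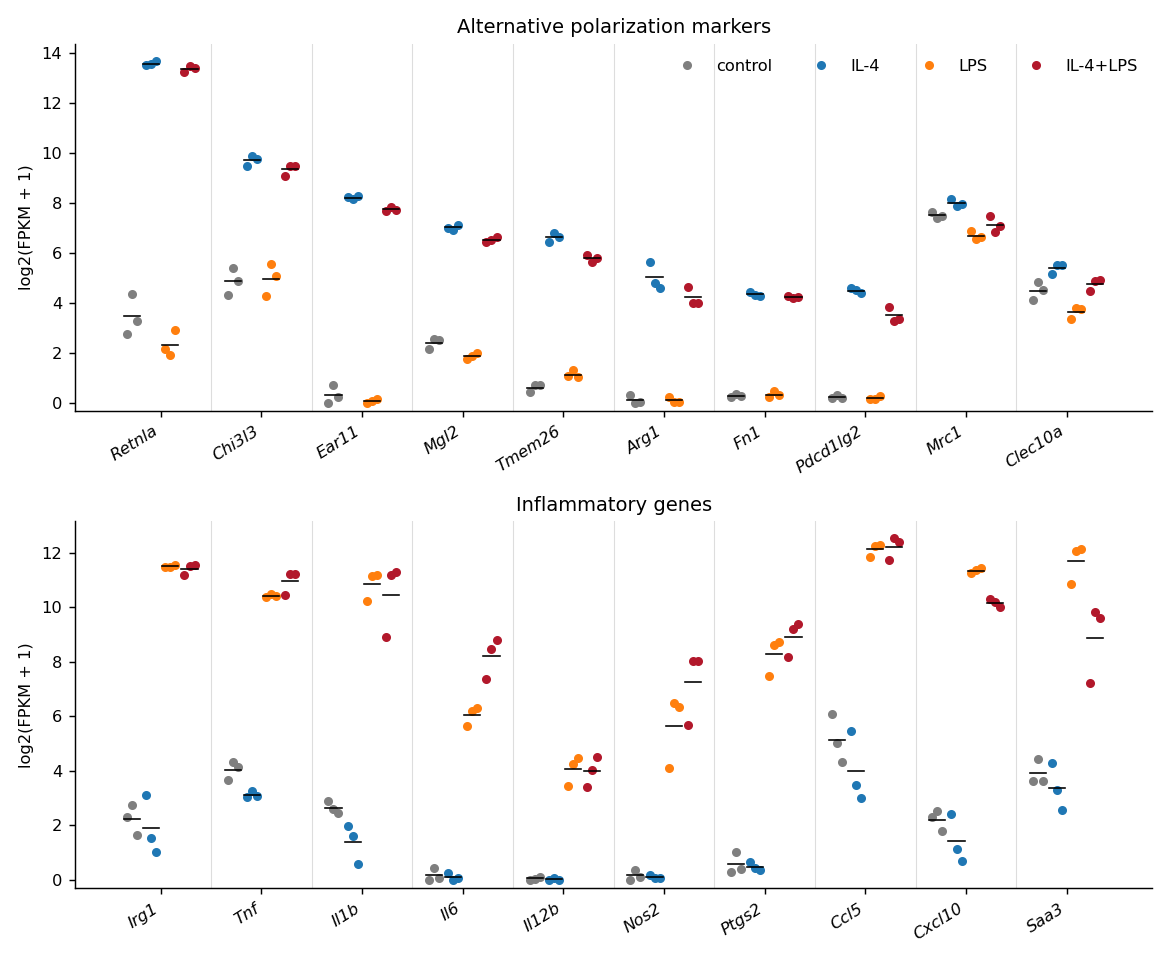
Log2(FPKM + 1) of 10 alternative markers (upper panel) and 10 inflammatory markers (lower panel) in the 3 samples (points) of each of the 4 groups, with a black line at the mean of the log2 values. The alternative markers from Retnla to Pdcd1lg2 stand high in IL-4 and IL-4+LPS, and the inflammatory markers stand high in LPS and IL-4+LPS.

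In the same samples the inflammatory cytokines were raised. Of 20 cytokines with a row 19 passed the filter; 15 were higher than in control, 2 (Ebi3 and Osm) were lower and 2 (Csf3 and Il18) did not pass, where 18.1% of all rows were higher and 57.2% lower, with a median difference of 3.72. The call of Osm, the cytokine oncostatin M, was lost under median scaling (limma adjusted p = 0.38) and without control replicate 1 (0.09) or 3 (0.096) or IL-4+LPS replicate 1 (0.11), and its difference was 0.065 under quantile normalization. Csf3 was called higher without IL-4+LPS replicate 1 (limma adjusted p = 0.017) or LPS replicate 1 (0.028), and Il18 under quantile normalization (0.0035) and median scaling (0.011). Lif stayed below the filter. Against IL-4 alone 18 of the 19 were higher, where 15.1% of all rows were, and against LPS alone 8 were higher, 2 lower and 9 did not pass, where 15.2% of all rows were higher and 15.8% lower. Without the 4 libraries numbered 1 these last counts were 12 higher and 4 lower, where 21.2% of all rows were higher and 26.0% lower.

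Tnf (chr17:35199391-35201996), a cytokine that activates endothelium and leukocytes, was at 11.8, 19.0 and 16.5 FPKM in control, 1313, 1416 and 1357 FPKM in LPS and 1393, 2365 and 2346 FPKM in IL-4+LPS. Tnf differed by 6.91 (SE 0.21, limma adjusted p = 1.5e-09) from control and 0.54 (SE 0.21, limma adjusted p = 0.073) from LPS. Il1b, the precursor of secreted IL-1β, was at 6.44, 5.04 and 4.44 FPKM in control, 1187, 2247 and 2314 FPKM in LPS and 478, 2317 and 2499.6 FPKM in IL-4+LPS. Replicate 1 of IL-4+LPS was the lowest of the LPS-treated samples and replicates 2 and 3 the highest. Il1b differed from control by 7.81 (SE 0.58, limma adjusted p = 6.2e-07) and from LPS by -0.39 (SE 0.58, limma adjusted p = 0.67). Without IL-4+LPS replicate 1, Tnf was called higher than in LPS (limma adjusted p = 0.0044, and 0.013 with all samples and the replicate number as a block), and Il1a, the membrane-bound and released IL-1α, was as well (0.023).

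Il6 (chr5:30013161-30019968), a cytokine of fever and the acute phase, was at 0, 0.352 and 0.057 FPKM in control, 0.19, 0 and 0.054 FPKM in IL-4, 48.8, 71.9 and 78.1 FPKM in LPS and 163, 355 and 447 FPKM in IL-4+LPS. Each IL-4+LPS sample lay above each LPS sample. Its promoter, printed above, held NF-kB and AP-1 matches and no palindrome. The log2 difference was 8.04 (SE 0.32, limma adjusted p = 7.7e-09) from control and 2.17 (SE 0.32, limma adjusted p = 0.0005) from LPS, and the IL-4+LPS mean of 322 ± 145 FPKM (SD, n = 3) was 485% of the LPS mean.

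The subunits of the IL-12 family did not move together. Il12a, which encodes p35, was listed at 0 in all 3 controls, at 2.11, 5.07 and 5.49 FPKM in LPS and at 24.3, 49.4 and 50.5 FPKM in IL-4+LPS. Its difference from LPS was 3.02 (SE 0.30, limma adjusted p = 3.5e-05). Il12b, which encodes the p40 chain shared by IL-12 and IL-23, was at 9.78, 18.0 and 21.3 FPKM in LPS and 9.70, 15.4 and 21.8 FPKM in IL-4+LPS, and the difference was -0.06 (SE 0.28, limma adjusted p = 0.9). Il23a, the p19 chain of IL-23, was at 0.07, 0.993 and 0.603 FPKM in LPS and 1.38, 14.4 and 16.8 FPKM in IL-4+LPS, a difference of 2.53 (SE 0.60, limma adjusted p = 0.0092). Il27, the p28 chain of IL-27, was at 0.498, 2.48 and 1.10 FPKM in control and 299.8, 915 and 811 FPKM in IL-4+LPS and differed from LPS by 0.56 (SE 0.48, limma adjusted p = 0.42). Its partner chain Ebi3 was at 63.1, 71.8 and 73.9 FPKM in control, 184, 228 and 236 FPKM in LPS and 29.2, 48.1 and 43.6 FPKM in IL-4+LPS. Ebi3 differed from control by -0.80 (SE 0.18, limma adjusted p = 0.0018), a call lost under median scaling (limma adjusted p = 0.065), and from LPS by -2.41 (SE 0.18, limma adjusted p = 3.7e-06).

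Growth factors of the same list included Csf1 (M-CSF), which differed from control by 3.72 (SE 0.18, limma adjusted p = 3.4e-08) and from LPS by 0.90 (SE 0.18, limma adjusted p = 0.004), and Csf2 (GM-CSF), which was listed at 0 in every control and reached 0.506, 2.13 and 1.98 FPKM. The call of Csf2 against LPS, 0.89 (SE 0.24, limma adjusted p = 0.016), ended without LPS replicate 1 or IL-4+LPS replicate 2 or 3. Inhba, the subunit of activin A, and Tnfsf15, the ligand TL1A, were higher than in LPS by 0.95 and 1.36 on the log2 scale. Ifnb1, which encodes IFN-β, was at 3.13, 2.14 and 2.05 FPKM in LPS and 2.07, 10.6 and 10.6 FPKM in IL-4+LPS, a difference of 1.13 (SE 0.41, limma adjusted p = 0.06) with replicate 1 and a call without it (limma adjusted p = 9.6e-06).

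Of the 17 inflammatory chemokines with a row, the 15 that passed the filter were all higher in IL-4+LPS than in control and than in IL-4, with a median difference from control of 6.20. Of all rows 18.1% were higher than in control and 15.1% higher than in IL-4. Ccl20 was listed at 0 and Cxcl11 stayed below 1 FPKM in the 6 samples. Against LPS 4 were higher (Ccl12, Ccl2, Ccl7 and Ccl8), 1 was lower (Cxcl10) and 10 did not pass. Of all rows 15.2% were higher and 15.8% lower than in LPS. Without the 4 libraries numbered 1, 10 were higher and 2 lower, where 21.2% and 26.0% of all rows were.

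Ccl2 (chr11:82035577-82037452), Ccl7, Ccl8 and Ccl12 encode monocyte chemoattractants of 1 cluster on chromosome 11. Ccl2 was at 4.55, 5.57 and 4.05 FPKM in control, 39.1, 37.9 and 40.1 FPKM in IL-4, 37.1, 60.5 and 55.9 FPKM in LPS and 273, 922 and 928 FPKM in IL-4+LPS. All 3 IL-4+LPS values lay above those of every other group, replicate 1 being the lowest. Ccl2 differed by 6.76 (SE 0.39, limma adjusted p = 1e-07) from control, 3.95 (SE 0.39, limma adjusted p = 7.2e-06) from IL-4 and 3.60 (SE 0.39, limma adjusted p = 6.5e-05) from LPS. Ccl7 differed from LPS by 3.42 (SE 0.33, limma adjusted p = 2.4e-05) and Ccl8 by 2.90 (SE 0.26, limma adjusted p = 1.5e-05). With IL-4 alone they were at 27.0, 33.4 and 29.6 FPKM (Ccl7) and 27.0, 17.3 and 18.3 FPKM (Ccl8), above every control value.

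Cxcl10 (chr5:92346639-92348889), a CXCR3 ligand induced by interferons, was at 3.99, 4.79 and 2.45 FPKM in control, 2429.6, 2602 and 2749 FPKM in LPS and 1245, 1157 and 1027 FPKM in IL-4+LPS. Its 3 IL-4+LPS values lay below all 3 LPS values and far above control. The log2 difference was 7.94 (SE 0.35, limma adjusted p = 1.5e-08) from control and -1.18 (SE 0.35, limma adjusted p = 0.026) from LPS. Although the groups did not overlap, the call against LPS ended without any 1 of the 3 LPS samples or IL-4+LPS replicate 2 or 3 (limma adjusted p = 0.052 to 0.082). The neutrophil attractants Cxcl1, Cxcl2 and Cxcl3 rose from control by 8.02, 7.77 and 8.49 and did not pass against LPS. Without IL-4+LPS replicate 1, Cxcl2 and Cxcl3 were called higher than in LPS (limma adjusted p = 0.0061 and 0.003). Ccl5, which attracts T cells and monocytes, was among the most abundant of the list at 3373, 5856 and 5290.3 FPKM in IL-4+LPS and 3677, 4848 and 4987 FPKM in LPS.

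The inflammatory enzymes and effectors were raised from control, and 10 of them were below LPS. All 20 passed the filter. Of these 18 were higher than in control, where 18.1% of all rows were, and Lcn2 and Marco did not pass. The median difference was 3.72. Against IL-4 all 20 were higher, where 15.1% of all rows were. Against LPS 2 were higher (Edn1 and F3) and 8 did not pass, where 15.2% of all rows were higher and 15.8% lower. Without the 4 libraries numbered 1 the counts were 5 higher and 11 lower, where 21.2% and 26.0% of all rows were. With the replicate number as a block they were 4 higher and 11 lower, where 20.7% and 23.9% of all rows were. Lcn2 was called higher than in control without IL-4+LPS replicate 1 (limma adjusted p = 0.012) or LPS replicate 1 (0.038) and after median scaling (0.027). With the replicate number as a block it was called lower than in LPS (limma adjusted p = 0.00051).

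Nos2 (chr11:78920859-78960124), the inducible nitric oxide synthase, competes with arginase for arginine. It was at 0, 0.296 and 0.093 FPKM in control, 0.133, 0.049 and 0.063 FPKM in IL-4, 16.3, 87.8 and 79.7 FPKM in LPS and 50.5, 260.3 and 256 FPKM in IL-4+LPS. Within each LPS-treated group replicate 1 was several times lower than replicates 2 and 3, which was also the case for Il1a and Slc7a2. The log2 difference was 7.07 (SE 0.68, limma adjusted p = 3.9e-06) from control and 1.60 (SE 0.68, limma adjusted p = 0.1) from LPS, and it was a call against LPS without IL-4+LPS replicate 1 (limma adjusted p = 0.01) and with the replicate number as a block (0.034). Irg1, also named Acod1, makes itaconate in the mitochondria, and Ptgs2 is the inducible cyclooxygenase. Irg1 rose by 9.18 (SE 0.45, limma adjusted p = 2.9e-08) and was at 2316, 2878 and 2973 FPKM in IL-4+LPS against 2833, 2835 and 3017 FPKM in LPS. Ptgs2 rose by 8.35 (SE 0.38, limma adjusted p = 1.7e-08) and was at 289.6, 591 and 662 FPKM in IL-4+LPS against 177, 391 and 422 FPKM in LPS.

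Ptges, the prostaglandin E synthase that acts downstream of the cyclooxygenases, moved apart from Ptgs2. It was at 0.724, 0.868 and 1.00 FPKM in control, 31.0, 126 and 94.7 FPKM in LPS and 2.39, 14.0 and 10.2 FPKM in IL-4+LPS, a difference of 2.16 (SE 0.56, limma adjusted p = 0.0048) from control and -3.14 (SE 0.56, limma adjusted p = 0.0018) from LPS. Saa3, an acute-phase apolipoprotein, was at 11.4, 20.9 and 11.4 FPKM in control, 1855, 4274 and 4469 FPKM in LPS and 147, 915 and 768 FPKM in IL-4+LPS. Its mean reached 17.3% of the LPS mean, and it differed from LPS by -2.81 (SE 0.68, limma adjusted p = 0.0098). Serpinb2, the plasminogen activator inhibitor PAI-2, likewise stood at 17.2% of its LPS mean, a difference of -2.30 (SE 0.38, limma adjusted p = 0.0011). In all 3 genes the IL-4+LPS values were above control and below every LPS value. The formyl peptide receptor gene Fpr1 differed from LPS by -1.59 (SE 0.15, limma adjusted p = 2.5e-05), Gpr84, a receptor for medium-chain fatty acids, by -0.89 (SE 0.19, limma adjusted p = 0.0046), and Sod2, the mitochondrial superoxide dismutase, by -0.55 (SE 0.14, limma adjusted p = 0.013).

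All 28 interferon-stimulated genes were higher in IL-4+LPS than in control and than in IL-4, with a median difference from control of 3.75. Of all rows 18.1% were higher than in control and 15.1% higher than in IL-4. Against LPS 26 did not pass and 2 (Isg20 and Mx2) were lower, with a median difference of -0.11, where 15.8% of all rows were lower. Without the 4 libraries numbered 1 there were 4 higher and 8 lower, where 21.2% and 26.0% of all rows were. Ifit1, which binds foreign RNA, was at 6.42, 3.89 and 2.68 FPKM in control, 1.75, 0.692 and 0.392 FPKM in IL-4, 668, 591 and 656 FPKM in LPS and 635, 593 and 559 FPKM in IL-4+LPS. Rsad2, the antiviral protein viperin, was at 9.33, 5.35 and 3.30 FPKM in control and 1042, 759.6 and 768 FPKM in IL-4+LPS, a difference of 7.01 (SE 0.31, limma adjusted p = 1.6e-08). For both genes the IL-4+LPS and LPS samples overlapped. Isg20, an RNA exonuclease, differed from LPS by -0.48 (SE 0.12, limma adjusted p = 0.011), and Mx2, a dynamin-like GTPase, by -0.45 (SE 0.14, limma adjusted p = 0.032). The call of Mx2 ended without any 1 LPS sample or IL-4+LPS replicate 3 (limma adjusted p = 0.065 to 0.12).

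**Figure D2:**
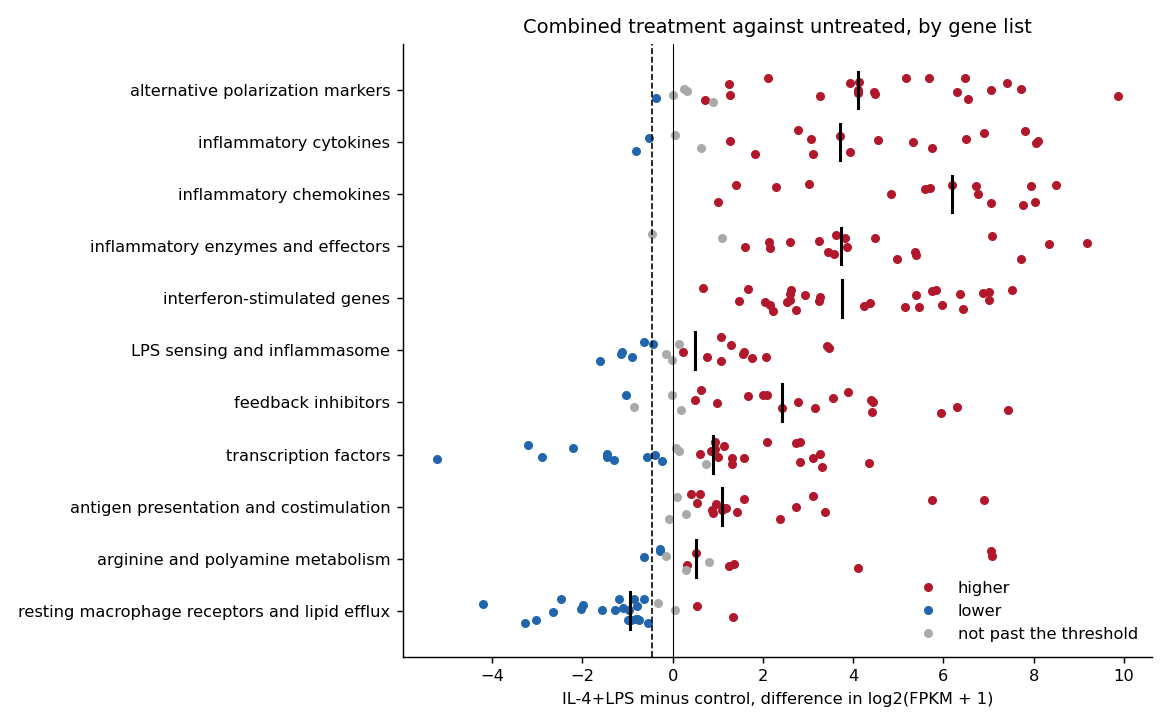
Log2 difference of IL-4+LPS from control (x axis, log2(FPKM + 1) scale) for each member of 11 gene lists (y axis), coloured by whether it passed an adjusted p of 0.05, with a black bar at the list median and a dashed line at the median of all rows, -0.45. The alternative markers, cytokines, chemokines, enzymes and interferon-stimulated genes lie mostly to the right, with medians of 3.72 to 6.20. The resting receptors and lipid efflux genes lie mostly to the left.

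**Figure D3:**
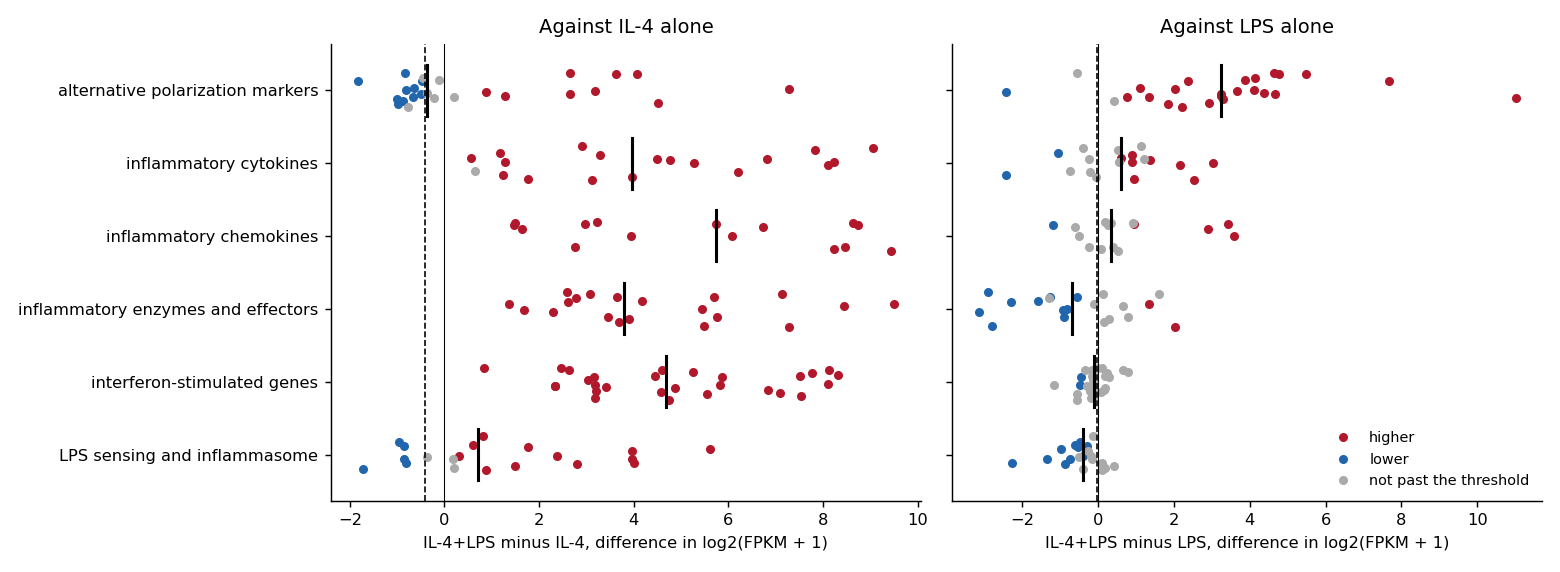
Log2 difference of IL-4+LPS from IL-4 alone (left) and from LPS alone (right) for each member of 6 gene lists, coloured by call, with a black bar at the list median and a dashed line at the median of all rows. Against IL-4 the 5 LPS-related lists lie to the right and the alternative markers around 0 (median -0.36), and against LPS the alternative markers lie to the right (median 3.25) and the other medians lie between -0.68 and 0.62.

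Read against the single agents, the 1981 rows higher than control fell into distinct patterns. The most frequent, 839 rows (42.35%), was higher than IL-4 and not different from LPS by the test, as for Irg1 and Ifit1. Another 236 rows (11.91%) were above IL-4 and below LPS, as for Saa3, Ptges and Tlr2. The pattern of Retnla, Chi3l3 and Fn1, above LPS and not different from IL-4, was found in 217 rows (10.95%), and that of Pdcd1lg2 and Tmem26, above LPS and below IL-4, in 145 rows (7.32%). Both single agents were exceeded in 295 rows (14.89%), which is 2.69% of all rows tested. In 209 rows (10.55%) neither single agent differed from IL-4+LPS. Of the 6277 rows lower than control, 3996 (63.66%) were below IL-4 and not different from LPS, and 937 (14.93%, 8.54% of all rows) were below all other groups. With the replicate number as a block the rows above IL-4 and below LPS were 392, those above LPS and below IL-4 269, and those below all other groups 1514. The most frequent pattern fell to 731 rows with the block, 32.26% of the rows higher than control in that fit. Without the 4 libraries numbered 1 it fell to 594 rows (26.11%). In that fit 528 rows (23.21%) exceeded both single agents and 484 (21.27%) were above IL-4 and below LPS. Rows not past the test are not shown to be equal, and the 3 contrasts share the IL-4+LPS samples.

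**Figure D4:**
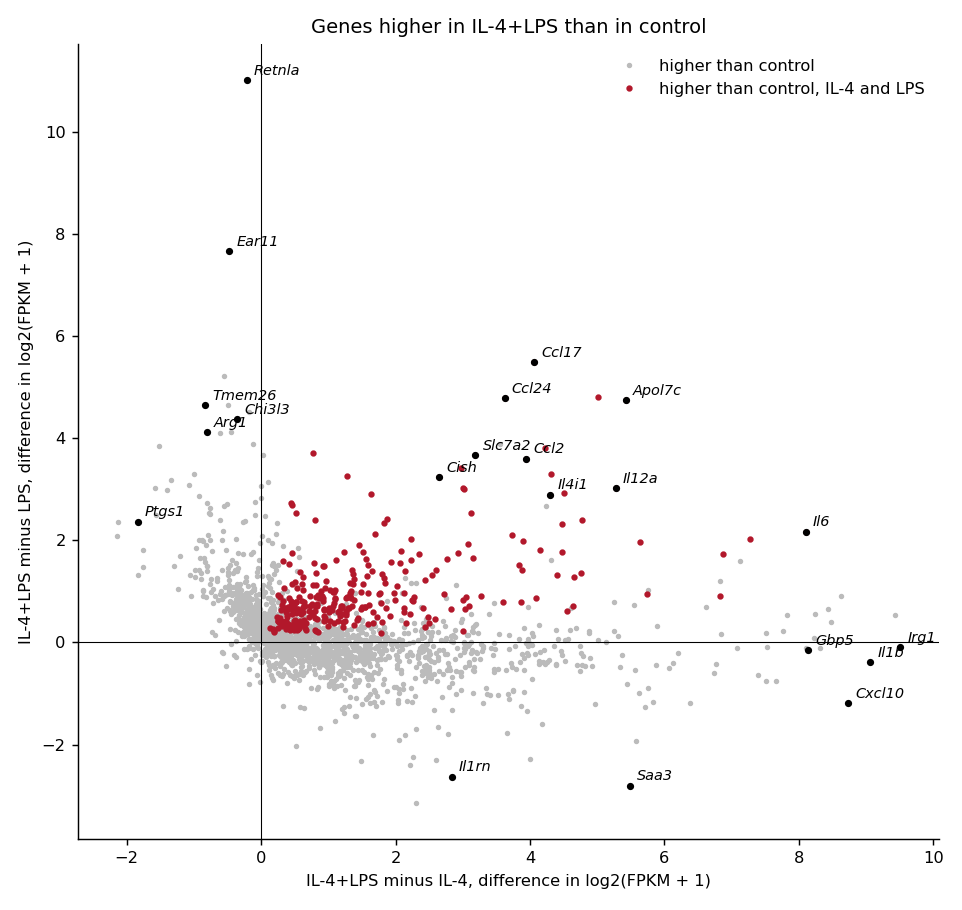
Each point is 1 of the 1981 rows higher in IL-4+LPS than in control, placed by its log2 difference from IL-4 alone (x axis) and from LPS alone (y axis), on the log2(FPKM + 1) scale. Points in red passed the test against all 3 other groups (295 rows); Retnla lies near 0 on x and high on y, and Irg1 lies high on x and near 0 on y.

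The rows highest in IL-4+LPS, ranked by the smaller of the differences from IL-4 and from LPS, began with apolipoprotein L genes of chromosome 15. Apol7c (chr15:77524867-77533315) was at 0.587, 1.28 and 0.548 FPKM in control, 9.78, 9.10 and 6.98 FPKM in IL-4, 20.1, 15.4 and 9.40 FPKM in LPS and 416, 431 and 382 FPKM in IL-4+LPS. The lowest IL-4+LPS sample was many times above the highest sample of either single agent. The mean of 409.7 ± 24.8 FPKM (SD, n = 3) was 4753% of the IL-4 mean and 2737% of the LPS mean, with a log2 difference of 5.43 (SE 0.24, limma adjusted p = 2.1e-08) from IL-4 and 4.74 (SE 0.24, limma adjusted p = 2.9e-07) from LPS. Apolipoproteins L are lipid-binding proteins related to a human trypanosome-killing serum factor.

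The related Gm8221 (chr15:77618968-77627398) was at 0.03, 0.189 and 0.064 FPKM in control and 74.3, 73.2 and 65.3 FPKM in IL-4+LPS, Apol7a (chr15:77388217-77399110) at 0.04, 0.119 and 0.036 and 25.2, 27.5 and 25.8 FPKM, and Apol7b (chr15:77422209-77447460) at 0.041, 0.031 and 0.025 and 8.79, 8.34 and 7.39 FPKM. In each the IL-4, LPS and control samples all lay below the IL-4+LPS samples. Fragments of these genes could be assigned to more than 1 gene: the share of 50-base words found in transcripts of other genes was 45.1% for Gm8221, 75.6% for Apol7b, 26.2% for Apol7c and 15.7% for Apol7a. Serpina3g, an inhibitor of cathepsins and other proteases, was at 0.092, 0.171 and 0.125 FPKM in control, 0.691, 0.567 and 0.447 FPKM in IL-4, 3.22, 1.89 and 1.58 FPKM in LPS and 32.5, 30.3 and 28.1 FPKM in IL-4+LPS, and 16.0% of its words were shared. The other 5 of the leading 10 were Ccl17, Ccl24, Ccl2, Slc7a2 and Il12a, given above.

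Il4i1 (chr7:44836288-44840809), a secreted amino acid oxidase that breaks down phenylalanine and other aromatic amino acids, was also among the 10 largest rises from control. It was at 0, 0.669 and 0.308 FPKM in control, 42.1, 26.9 and 26.5 FPKM in IL-4, 57.6, 103 and 101 FPKM in LPS and 482, 736 and 713 FPKM in IL-4+LPS. Il4i1 differed by 8.93 (SE 0.28, limma adjusted p = 1.8e-09) from control, 4.30 (SE 0.28, limma adjusted p = 3.5e-07) from IL-4 and 2.89 (SE 0.28, limma adjusted p = 2.9e-05) from LPS. With it, the 10 largest rises were Retnla, Irg1, Cxcl3, Ptgs2, Il27, Il6, Cxcl1, Cxcl10 and Apol7c. Retnla was the only one on the list of alternative markers, while Il4i1 and Apol7c were on none of the lists. Both Il4i1 and Apol7c were above every control value with IL-4 alone and with LPS alone.

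**Figure D5:**
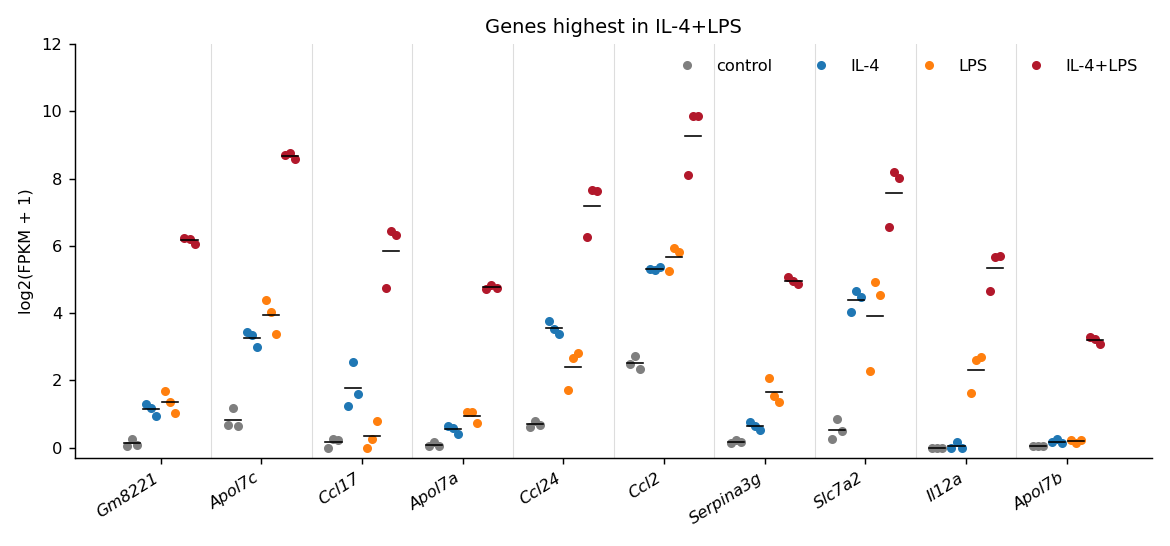
Log2(FPKM + 1) in the 3 samples (points) of each of the 4 groups for the 10 rows ranked highest in IL-4+LPS against all other groups, with a black line at the mean of the log2 values. For each of these genes the 3 IL-4+LPS samples stand above the other 9 samples.

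The machinery that senses LPS was only in part at the LPS level. Of 20 genes of LPS sensing and the inflammasome, 11 were higher than in control, 6 lower and 3 did not pass, with a median difference of 0.50. Of all rows 18.1% were higher and 57.2% lower than in control. Against LPS 0 were higher and 10 lower, where 15.2% and 15.8% of all rows were. Cd14, the LPS co-receptor, was at 144, 153 and 163 FPKM in control, 19.3, 13.5 and 14.0 FPKM in IL-4, 1155, 1348 and 1310.4 FPKM in LPS and 198, 287 and 312 FPKM in IL-4+LPS. IL-4+LPS lay above control and IL-4 and well below LPS. The log2 difference was 0.76 (SE 0.17, limma adjusted p = 0.0019) from control and -2.28 (SE 0.17, limma adjusted p = 4.2e-06) from LPS. Tlr2, the receptor of bacterial lipopeptides, differed by 1.57 (SE 0.15, limma adjusted p = 3.1e-06) from control and -1.34 (SE 0.15, limma adjusted p = 6.2e-05) from LPS, and Nlrp3, the sensor of the NLRP3 inflammasome, by 3.41 (SE 0.12, limma adjusted p = 4.2e-09) and -0.99 (SE 0.12, limma adjusted p = 0.00017).

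Casp4, the caspase that binds LPS in the cytosol (caspase-11), differed from LPS by -0.88 (SE 0.17, limma adjusted p = 0.003), and the adaptor gene Myd88 by -0.53 (SE 0.12, limma adjusted p = 0.0072). Tlr4 itself was at 25.2, 21.6 and 22.1 FPKM in control and 10.2, 5.64 and 5.54 FPKM in IL-4+LPS, and differed from control by -1.60 (SE 0.26, limma adjusted p = 0.0002) and from LPS by -0.40 (SE 0.26, limma adjusted p = 0.28), the second a call with the replicate number as a block (limma adjusted p = 0.019). Pycard, the inflammasome adaptor ASC, was below all 3 other groups, at 26.5, 37.5 and 34.0 FPKM in control and 19.1, 22.2 and 20.4 FPKM in IL-4+LPS, a difference of -0.63 (SE 0.11, limma adjusted p = 0.0003). Casp1, which cleaves pro-IL-1β, and Gsdmd, the pore protein of pyroptosis, were above control by 1.07 and 1.06 and did not pass against LPS (limma adjusted p = 0.63 and limma adjusted p = 0.4).

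Among 21 feedback inhibitors 17 were higher than in control, 1 was lower and 3 did not pass, where 18.1% and 57.2% of all rows were higher and lower. Against LPS 5 were higher and 7 lower, where 15.2% and 15.8% of all rows were. Without the 4 libraries numbered 1 the counts were 7 higher and 12 lower, where 21.2% and 26.0% of all rows were. Socs1 (chr16:10783809-10785536), which blocks JAK kinases downstream of both IL-4 and interferons, was at 1.23, 0.49 and 0.769 FPKM in control, 33.3, 30.6 and 30.7 FPKM in IL-4, 35.7, 68.5 and 71.2 FPKM in LPS and 74.6, 144 and 124 FPKM in IL-4+LPS. All 3 IL-4+LPS samples were above the highest LPS sample. It differed from LPS by 0.96 (SE 0.29, limma adjusted p = 0.027), a call lost without LPS replicate 1 or IL-4+LPS replicate 2 or 3. Socs2, another member of that family, was at 2.76, 2.65 and 2.87 FPKM in IL-4 and 1.03, 1.05 and 1.33 FPKM in IL-4+LPS. It was below IL-4 by -0.82 (SE 0.09, limma adjusted p = 1.2e-05). Like Socs1 it was above control, by 0.98 (limma adjusted p = 2.2e-06), and above LPS, by 0.88 (limma adjusted p = 3.1e-05). Socs3, Nfkbia, which holds NF-kB in the cytoplasm, and Tnfaip3 (A20), a ubiquitin-editing inhibitor, rose from control by 7.42, 3.88 and 4.41 and did not pass against LPS, where Nfkbia was called lower with the replicate number as a block (limma adjusted p = 0.0056).

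Il1rn, the IL-1 receptor antagonist, was at 9.45, 11.4 and 12.4 FPKM in control, 119.6, 336 and 319 FPKM in LPS and 21.2, 50.2 and 47.2 FPKM in IL-4+LPS, and differed from LPS by -2.63 (SE 0.39, limma adjusted p = 0.00057). Irak3, an inhibitory kinase of the TLR pathway, differed from LPS by -1.81 (SE 0.09, limma adjusted p = 3.8e-07). The anti-inflammatory cytokine gene Il10 was at 5.20, 7.90 and 7.50 FPKM in control, 8.11, 59.4 and 49.3 FPKM in LPS and 1.60, 14.5 and 10.3 FPKM in IL-4+LPS. Replicate 1 of both LPS-treated groups was far below replicates 2 and 3, and the test gave -0.01 (SE 0.74, limma adjusted p = 0.99) against control and -1.98 (SE 0.74, limma adjusted p = 0.069) against LPS. The second was a call without LPS replicate 1 (limma adjusted p = 0.0069) and with the replicate number as a block (0.0079). Without the 4 libraries numbered 1, Il10 was called higher than in control, by 0.605 (limma adjusted p = 0.0089).

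Of 30 transcription factor genes 17 were higher than in control, 10 were lower and 3 did not pass, where 18.1% and 57.2% of all rows were higher and lower. Irf1, an interferon-induced activator, was at 43.8, 45.3 and 30.0 FPKM in control and 890.2, 799 and 776 FPKM in IL-4+LPS and was above LPS by 0.80 (SE 0.15, limma adjusted p = 0.0023). Irf8, a factor of monocyte and dendritic cell development, was at 86.4, 76.6 and 75.7 FPKM in control, 54.3, 43.1 and 44.9 FPKM in IL-4, 33.4, 31.3 and 31.2 FPKM in LPS and 132, 205 and 200.4 FPKM in IL-4+LPS. The single agents thus lay below control and the combination above it, with differences of 1.14 (SE 0.15, limma adjusted p = 5.1e-05) from control and 2.42 (SE 0.15, limma adjusted p = 1.5e-06) from LPS. Rel, an NF-kB subunit, rose by 3.12 (SE 0.15, limma adjusted p = 2.9e-08) and was above LPS by 0.65 (SE 0.15, limma adjusted p = 0.0079).

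Against IL-4 17 of the 30 transcription factor genes were higher and 10 lower, where 15.1% and 58.3% of all rows were. The 10 lower genes included Irf4, Klf4, Egr2, Pparg and Myc, factors known for roles in alternative polarization. Irf4 was at 1.15, 1.50 and 1.43 FPKM in control, 19.2, 20.6 and 19.9 FPKM in IL-4 and 3.61, 3.99 and 3.66 FPKM in IL-4+LPS, which put it above control and below IL-4 by -2.14 (SE 0.09, limma adjusted p = 1.6e-08). Klf4 was at 11.2, 12.6 and 13.5 FPKM in IL-4 and 1.39, 1.55 and 1.87 FPKM in IL-4+LPS, below IL-4 by -2.37 (SE 0.09, limma adjusted p = 1.1e-08) and not past the test against control, where it was called higher under quantile normalization (limma adjusted p = 0.00011) and median scaling (0.0056). Pparg, a lipid-activated nuclear receptor, was at 42.6, 43.5 and 41.5 FPKM in control, 101, 97.4 and 89.0 FPKM in IL-4 and 15.4, 6.37 and 5.84 FPKM in IL-4+LPS, and was below control by -2.21 (SE 0.27, limma adjusted p = 2.5e-05). Myc was below control by -1.45 (SE 0.17, limma adjusted p = 1.5e-05) and below IL-4 by -2.80 (SE 0.17, limma adjusted p = 1.7e-07). Egr2 was at 86.0, 94.7 and 93.5 FPKM in IL-4 and 23.4, 6.21 and 5.33 FPKM in IL-4+LPS; it fell below IL-4 by -3.15 (SE 0.49, limma adjusted p = 0.00017), and its call against control was lost without control replicate 1, 2 or 3 or IL-4+LPS replicate 2 or 3. Stat6 itself was at 65.3, 76.1 and 77.2 FPKM in control and 58.3, 52.7 and 56.1 FPKM in IL-4+LPS, a difference of -0.38 (SE 0.08, limma adjusted p = 0.0011) that was 0.002 after median scaling.

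Genes of antigen presentation and costimulation were mostly higher: of 20 that passed the filter 17 were higher than in control, 0 lower and 3 did not pass, with a median difference of 1.11. Of all rows 18.1% were higher and 57.2% lower than in control. Against LPS 11 were higher and 2 lower, where 15.2% and 15.8% of all rows were. Quantile normalization left 16 higher than in control, where 3044 of all 10970 rows were. It left 8 higher than in LPS, for which the share of all rows is not given here. Ciita, the activator of the MHC class II genes, was at 5.52, 8.12 and 6.54 FPKM in control, 13.2, 15.2 and 13.9 FPKM in IL-4, 2.23, 2.32 and 2.09 FPKM in LPS and 17.9, 20.2 and 21.0 FPKM in IL-4+LPS. The combination was above all other groups, with differences of 1.43 (SE 0.12, limma adjusted p = 1.1e-06) from control and 2.69 (SE 0.12, limma adjusted p = 1e-07) from LPS. H2-DMb1, which loads peptides onto class II, rose by 1.58 (SE 0.11, limma adjusted p = 2.9e-07), and H2-Ab1, a class II chain, by 0.89 (SE 0.15, limma adjusted p = 0.00024). Cd83, a marker of activated antigen-presenting cells, was at 27.1, 31.9 and 30.1 FPKM in control, 109.9, 83.7 and 82.1 FPKM in LPS and 312, 239 and 244 FPKM in IL-4+LPS, above LPS by 1.52 (SE 0.14, limma adjusted p = 1.7e-05). Cd40, which receives T cell help, and Icam1, an adhesion molecule, rose from control by 6.90 and 5.74. Cd40 differed from LPS by 0.69 (limma adjusted p = 0.094), a call with the replicate number as a block (0.00965).

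The inhibitory ligands of PD-1 took separate courses. Cd274 (PD-L1) was at 25.6, 19.8 and 17.9 FPKM in control, 51.4, 39.2 and 36.2 FPKM in IL-4, 162, 197 and 201 FPKM in LPS and 244, 225 and 207 FPKM in IL-4+LPS. It was above IL-4 by 2.40 (SE 0.16, limma adjusted p = 3.2e-07) and did not pass against LPS, whereas Pdcd1lg2 was below IL-4 and above LPS. The costimulatory genes Cd80 and Cd86 did not pass against control (limma adjusted p = 0.11 and limma adjusted p = 0.68). Cd80 was called higher under quantile normalization (limma adjusted p = 0.00052), median scaling (0.0069) and without IL-4+LPS replicate 1 (0.006). Cd86 was called higher than in control under quantile normalization (limma adjusted p = 0.039). Against LPS Cd86 differed by -0.90 (limma adjusted p = 0.0014).

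In arginine and polyamine metabolism, 7 of 13 genes were higher than in control, 3 lower and 3 did not pass, where 18.1% of all rows were higher and 57.2% lower. Arg1 and Nos2, the rival enzymes of arginine use, were raised together, with means of 18.2 ± 5.34 and 189 ± 120 FPKM (SD, n = 3 each) in IL-4+LPS. In replicate 1 the Arg1 value was the highest and the Nos2 value the lowest of the group. The arginine importers Slc7a2 and Slc7a1 were above control by 7.05 and 1.35. Arg2, the mitochondrial arginase, was at 0.413, 0.103 and 0.605 FPKM in control and 2.23, 2.12 and 2.27 FPKM in IL-4+LPS, a difference of 1.24 (SE 0.18, limma adjusted p = 7.6e-05).

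The list of resting macrophage receptors and lipid efflux genes mostly went down. It also held genes that are not receptors, such as Gas6, Abca1 and C1qa. Of 26 that passed the filter 22 were lower than in control, 2 (Ccr1 and Fcgr2b) were higher and 2 did not pass, where 57.2% of all rows were lower. After median scaling 16 were lower, where 4447 of all 10970 rows were. The list median was -0.94 against -0.45 for all rows. Stab1, a scavenger receptor of alternatively activated macrophages, was at 227, 245 and 251 FPKM in control, 65.0, 54.5 and 52.7 FPKM in IL-4, 102, 97.4 and 94.1 FPKM in LPS and 47.6, 32.8 and 33.4 FPKM in IL-4+LPS. Gas6, the bridging ligand for uptake of dying cells by TAM receptors, was at 199, 182 and 183 FPKM in control and 25.8, 15.4 and 15.8 FPKM in IL-4+LPS, a difference of -3.28 (SE 0.19, limma adjusted p = 1.1e-07). Both were lowest in IL-4+LPS with no overlap with any other group. Csf1r, the M-CSF receptor, was at 932, 888 and 906 FPKM in control and 546, 411 and 449 FPKM in IL-4+LPS, a difference of -0.96 (SE 0.12, limma adjusted p = 2.6e-05).

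Slc40a1 (chr1:45908070-45925594), the iron exporter ferroportin, had the largest fall of the rows past the test whose groups did not overlap, short RNA genes left out, and also led the rows lowest in IL-4+LPS. It was at 155, 127 and 131 FPKM in control, 20.5, 18.4 and 16.8 FPKM in IL-4, 21.8, 8.30 and 7.90 FPKM in LPS and 4.28, 1.10 and 1.03 FPKM in IL-4+LPS. Both single-agent groups lay below control, and the IL-4+LPS values lay below both. The difference was -5.61 (SE 0.40, limma adjusted p = 4.4e-07) from control, -2.79 (SE 0.40, limma adjusted p = 0.0001) from IL-4 and -2.13 (SE 0.40, limma adjusted p = 0.0024) from LPS. The other large falls included Cxcr4, the CXCL12 receptor (-4.99), Tmem86a, a lysoplasmalogenase (-5.02), Sesn1, a stress-induced sestrin (-4.91), and S1pr1, the receptor for sphingosine-1-phosphate (-4.46). Lpar6, a lysophosphatidic acid receptor, Arhgap19, Lyl1, a haematopoietic transcription factor, and Gpr162 fell by 4.36 to 4.84. That the control and IL-4+LPS samples did not overlap was a condition for choosing these genes and is no separate result. Of the 10970 rows tested, 8375 had no overlap between control and IL-4+LPS.

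Among the rows lowest in IL-4+LPS against all other groups, the leading 5 were Slc40a1 and the 4 genes that follow. Rab31, a GTPase of vesicle transport, was at 93.1, 104 and 103 FPKM in control, 79.5, 89.8 and 87.7 FPKM in IL-4, 86.2, 96.0 and 91.8 FPKM in LPS and 29.2, 20.9 and 21.8 FPKM in IL-4+LPS. The difference was -2.04 (SE 0.12, limma adjusted p = 8e-08) from control. Sla, an adaptor that dampens receptor tyrosine kinase signals, was at 11.9, 14.4 and 13.7 FPKM in control, 17.1, 20.6 and 21.7 FPKM in IL-4, 18.0, 13.5 and 15.2 FPKM in LPS and 3.32, 3.42 and 3.31 FPKM in IL-4+LPS. Ggta1, the enzyme that makes the alpha-gal epitope, was at 42.6, 44.8 and 46.2 FPKM in control, 47.4, 48.6 and 47.7 FPKM in IL-4, 58.7, 79.4 and 77.5 FPKM in LPS and 11.0, 13.4 and 11.5 FPKM in IL-4+LPS. Pstpip1, a cytoskeletal adaptor that binds pyrin, was at 71.1, 59.2 and 62.6 FPKM in control, 37.6, 32.2 and 32.0 FPKM in IL-4, 74.5, 54.7 and 53.8 FPKM in LPS and 14.5, 7.01 and 6.52 FPKM in IL-4+LPS. In these 4 genes the IL-4+LPS means were between 15.3% and 27.9% of the mean of either single agent.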

How the data were processed

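Poly-A RNA was sequenced as paired reads. The authors mapped the reads with TopHat2 2.0.7 and computed FPKM with Cufflinks 2.0.2 on mm10, and deposited 1 table of FPKM values per sample (tools and build per the study and the submitters' processing notes). The gene annotation and any filter are not given in the sources used here. Because FPKM is a share of a library, a rise of abundant RNAs lowers the values of the rest.

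Tables were joined on symbol, locus and start sites, and 1 was added to the 0-based locus starts. Rows with at least 1 FPKM in any of the 6 compared samples were kept. Values were transformed to log2(FPKM + 1), a scale that understates changes of low genes, and the 4 group means were modelled together from the 12 samples with limma 3.58.1 and R 4.3.3 (eBayes with trend, 8 residual degrees of freedom). Each contrast was adjusted by Benjamini-Hochberg on its own, and a row was called at an adjusted p under 0.05 whatever its fold. The script was tested on simulated data.

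The members and gene lists were chosen with earlier results of these data known. Text genes are list members, the 10 largest rises and falls with no overlap between groups and the same sign in replicate numbers 1 to 3, and the 10 highest and 5 lowest in IL-4+LPS against all groups, with names starting Mir, Snor or Rn left out (255 such rows, 76 called); 1 gene that met this rule is not reported here. Members appear under the files' symbols (Chi3l3, Chi3l4, Emr1, Irg1, Sfpi1). Shared sequence is the percent of 50-base words of a gene's longest GENCODE vM21 transcript found in transcripts of other genes. Promoters came from RefSeq tables of GRCm38.p6. Alternatives were other pseudocounts, filters, scalings, fits, thresholds, the replicate number as a block, and each sample left out in turn. Same-numbered samples of LPS and IL-4+LPS deviated together over the tested rows (correlations of 0.422, 0.2 and 0.13, a check on the data and not from the labels), although LPS 2 correlated better with IL-4+LPS 3 (0.244) and LPS 3 with IL-4+LPS 2 (0.146). Figures were drawn with matplotlib 3.10.9.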

Additional observations from a re-analysis of the deposited data

How the results depend on the processing

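Of the alternatives tried, a filter of 1 FPKM in at least 3 of the 6 samples, no filter at all, a pseudocount of 0.1, no intensity trend, a fit of the 6 samples only (which has no single-agent contrast), unadjusted p and a per-gene Tukey test kept the counts of rows higher, lower, highest and lowest in IL-4+LPS within 1.5 times of those reported. Quantile normalization gave 3044 higher, 4160 lower and 546 lowest rows, and median scaling 3263 higher and 487 highest rows. A 2-fold minimum left 896 higher, 2420 lower, 71 highest and 57 lowest. With the replicate number as a block, 2266 rows were higher, 6785 lower, 429 highest and 1514 lowest. Same-numbered samples of control and IL-4+LPS deviated from their group means with correlations of 0.181, 0.158 and 0.0022. Control 3 correlated best with IL-4+LPS 2 (0.121). Same-numbered samples of IL-4 and IL-4+LPS gave 0.185, 0.119 and 0.08. Each IL-4 sample correlated best with its own number, IL-4 2 only narrowly (0.117 with IL-4+LPS 3). Whether the samples of these contrasts are paired was not tested. With the block, Clec7a, Clec10a and Lcn2 were called higher than in control (limma adjusted p = 3.75e-07, 0.012 and 0.00039). Against LPS the block gave 2268 higher and 2618 lower rows, where 1663 and 1734 are reported, and changed the call of 10 named genes. Leaving out 1 sample gave 1822 to 2024 higher, 5915 to 6353 lower, 226 to 382 highest and 604 to 1218 lowest rows, the last being 604 without IL-4+LPS replicate 2 and 607 without replicate 3. A fit without replicate 1 in all 4 groups, chosen after seeing the data, gave 528 highest and 1704 lowest rows. Of 136 named genes 110 kept their side of the threshold and direction against control under every setting, and 8 reversed under some. Under quantile normalization the log2 difference from control became -0.31 for Cd36, 0.36 for Cd86, 0.44 for Il10 and 0.065 for Osm; under median scaling it became 0.28 for Cd86, 0.32 for Il10, 0.01 for Mrc1 and 0.002 for Stat6. Leaving out 1 sample at a time moved Cd36 from -0.133 to 0.083, Cd86 from -0.189 to 0.008 and Il10 from -0.522 to 0.768. Il18 moved from -0.031 to 0.113 and Marco from -1.344 to 0.253. In those fits none of these genes passed the test against control. Without replicate 1 in all groups Cd36 was at -0.062. In that fit Il10 was at 0.605 and was called higher than in control (limma adjusted p = 0.0089). Leaving out 1 sample ended the call against control of 3 named genes, Mrc1, Osm and Egr2. For the single genes the cause of these changes was not tested. Absolute depth is unknown, so no count-based error could be given, and low FPKM values are least certain in the libraries of least depth.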

Other observations

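Genes of glycolysis and the hypoxia response did not move one way. Of 20 genes 5 were higher and 6 lower in IL-4+LPS than in control and 9 did not pass, where 18.1% of all rows were higher and 57.2% lower. The median was 0.04. Median scaling gave 11 higher and 3 lower, where 3263 and 4447 of all 10970 rows were higher and lower. Pfkp, the platelet-type phosphofructokinase, was at 19.8, 23.4 and 23.3 FPKM in control, 57.8, 60.2 and 59.4 FPKM in IL-4, 43.2, 49.5 and 45.3 FPKM in LPS and 103, 103 and 98.1 FPKM in IL-4+LPS, and was above all other groups, with a difference of 2.15 (SE 0.08, limma adjusted p = 3.6e-09) from control. The glucose transporter gene Slc2a1 was above control by 1.07 (SE 0.12, limma adjusted p = 1.6e-05) and below LPS by -0.61 (SE 0.12, limma adjusted p = 0.0037).

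Of 22 cell cycle genes 19 were lower than in control, 2 (Mki67 and Ccne1) were higher and 1 did not pass, where 57.2% of all rows were lower and 18.1% higher, with a median of -1.30 against -0.45 for all rows. Ccnd1, the cyclin of early G1, was at 17.4, 36.5 and 36.6 FPKM in control, 25.9, 37.8 and 39.8 FPKM in IL-4, 5.25, 6.69 and 6.11 FPKM in LPS and 7.31, 5.56 and 5.75 FPKM in IL-4+LPS. Mki67, which encodes the proliferation marker Ki-67, was at 8.93, 6.98 and 7.87 FPKM in control, 6.47, 1.90 and 2.99 FPKM in IL-4, 17.6, 14.1 and 15.2 FPKM in LPS and 26.6, 18.1 and 17.8 FPKM in IL-4+LPS, a difference of 1.27 (SE 0.29, limma adjusted p = 0.002) from control. Zbtb46, a factor of classical dendritic cells, was above all 3 other groups, by 1.65 (SE 0.12, limma adjusted p = 5.7e-07) from control, 1.32 (SE 0.12, limma adjusted p = 4.3e-06) from IL-4 and 1.16 (SE 0.12, limma adjusted p = 5.1e-05) from LPS, at a mean of 2.42 ± 0.451 FPKM (SD, n = 3).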
